A study of Rattus norvegicus with 20 samples.

Results

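Inguinal white adipose tissue (iWAT), a subcutaneous fat depot, was compared between untreated ZSF1 obese (Obese) and ZSF1 lean (Lean) rats by bulk RNA sequencing, with 5 libraries, 1 per animal, on each side, of 20 libraries in the series. The libraries were chosen by their labels, phenotype obese or lean with no treatment. All 10 animals were male F1 rats of a cross of 2 strains that carry different leptin receptor mutations, were fed Purina high carbohydrate chow without drug, and were sampled at the end of a 10-week study, at approximately 32 weeks of age. The mutation is in every cell of the body. The paper describes the 5 sequenced animals per group as selected at random, but its Lean group held only 5 animals. Obese animals inherit a mutated leptin receptor from both parents, overeat and become diabetic, whereas Lean animals do not carry both mutations and eat normally. Obese and Lean animals thus differ in genotype, food intake, adiposity and diabetes together, and these cannot be told apart here. The other 10 libraries, from obese rats on restricted food (Food matched) or given the PKC inhibitor Cmpd 1, entered the statistical model only to estimate the spread between animals.

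White adipocytes store triglyceride under the control of insulin, release fatty acids under the control of catecholamines, and secrete hormones. They lie among progenitor cells, vessels, nerve fibers and resident macrophages. Growth factors of the BMP, TGF-β and Wnt families, sex steroids and growth hormone all act on this tissue in fat expansion.

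The Lean and Obese libraries held 50604956 to 70206686 counted reads, and levels are given as CPM (reads of a gene scaled to library size) with TMM-scaled library sizes. Lepr, the leptin receptor gene and the check of the labels, was at 2.95 to 12 CPM in Lean and 1.24 to 1.89 CPM in Obese libraries, with no overlap. Lean rats 1 and 2 carried skeletal muscle transcripts, with the 26 muscle markers tested summing to 4712 and 8415 CPM there, to 50.7 to 52.9 CPM in Lean rats 3 to 5 and to 42.5 to 65.2 CPM in Obese animals. Fold changes were therefore fitted with all libraries and again without Lean rats 1 and 2. Differentially expressed genes (DEGs) changed by more than 1.5-fold at an adjusted p below 0.05 (edgeR quasi-likelihood, Benjamini-Hochberg over 17653 genes). A gene that was a DEG in the same direction in both fits is called held. Unless another is named, each log2 fold change below is Obese against Lean rats 3 to 5 with its standard error (SE).

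Of 17653 genes, 3107 were held (17.6%), 1707 higher (9.67%) and 1400 lower (7.93%) in Obese animals. They changed by more than 2-fold in 1138 genes that rose and 847 that fell, and by more than 4-fold in 424 and 314. With all libraries there were 3929 DEGs (22.3%; 11.3% higher and 11% lower), and without Lean rats 1 and 2 there were 3377 (19.1%; 10.6% higher and 8.51% lower). A further 810 genes (4.59%) were DEGs with all Lean animals alone, 258 (1.46%; 0.878% higher and 0.583% lower) without Lean rats 1 and 2 alone, and 12 (0.068%) were DEGs in opposite directions. The median log2 fold change of all genes was −0.01 with all libraries and 0.00 without Lean rats 1 and 2. Leaving out any 1 of the 10 libraries as well left 2342 genes held every time (13.3%), 1397 higher (7.91%) and 945 lower (5.35%). Of all genes, 17.7% were higher and 15.9% lower in every Obese animal than in any Lean animal. Of 592 genes whose symbols belong to immune families, 195 were held higher (32.9%) and 50 lower (8.45%). Of the other 17061 genes, 1512 were held higher (8.86%) and 1350 lower (7.91%).

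**Figure D1:**
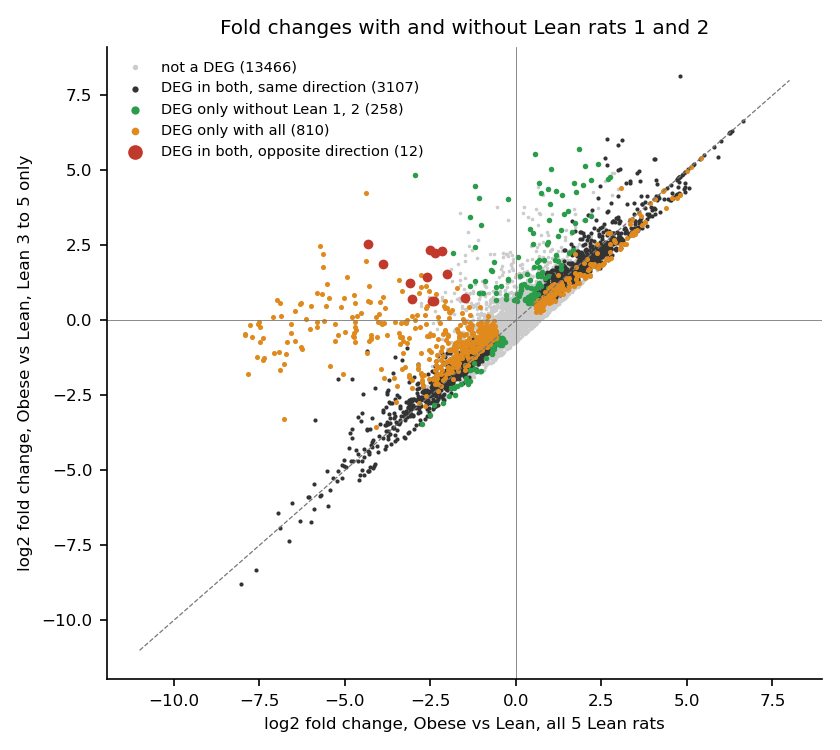
Each point is 1 of 17653 genes, with its log2 fold change (Obese against Lean) from all libraries on the horizontal axis and without Lean rats 1 and 2 on the vertical axis. The 3107 held genes lie near the dashed line of equal values, while many of the 810 genes that were DEGs with all libraries alone lie on a horizontal band near 0, and the 12 genes with opposite calls lie at the upper left.

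The largest held increases outside immune families, a split made by symbol alone, included genes better known from neurons, endocrine cells and epithelia. Among the 15 largest were Ncan, Dsp, Wfdc8, Klk6, Celsr3, Tmem72, Oscar, Vsig8, Hs3st6, Ptprn, Cadps, 4930452B06Rik, Pax8 and Atp6v0d2, and no Obese animal overlapped any Lean animal in them, a feature that was part of how they were chosen. Dsp, which encodes the desmosome protein desmoplakin, was at 7.44, 14.1, 1.57, 2.47 and 2.75 CPM in Lean rats 1 to 5 and at 38.8, 60.7, 60, 66.9 and 59.6 CPM in Obese rats 1 to 5. Lean rats 1 and 2 were the highest of the Lean animals, and Obese rat 1 was the lowest of the Obese. The log2 fold change was 4.65 (SE 0.33, adjusted p = 7.3e-09), against 3.32 with all libraries. Ptprn and Cadps, which encode proteins of regulated secretion from dense-core vesicles, rose together. Ptprn was at 0.802, 0.778, 1.27, 2.00 and 1.12 CPM in Lean and at 23.5, 14.1, 19.1, 25.8 and 15.8 CPM in Obese animals (log2 fold change 3.75, SE 0.37, adjusted p = 1.8e-07). Cadps was at 0.391, 0.792, 1.86, 2.80 and 1.13 CPM in Lean and at 23.0, 18.6, 17.4, 20.9 and 20.5 CPM in Obese animals (log2 fold change 3.38, SE 0.26, adjusted p = 1.3e-08). The highest Lean value of each lay several fold under the lowest Obese value.

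Celsr3, an atypical cadherin, had a log2 fold change of 4.14 (SE 0.39). Hs3st6, a heparan sulfate sulfotransferase, rose by a log2 fold change of 3.79 (SE 0.51) and Pax8, a transcription factor of thyroid and kidney, by 3.25 (SE 0.37). Oscar and Atp6v0d2 are genes of osteoclasts and macrophages. Oscar rose from 0.199 to 0.591 CPM in Lean animals to 4.33 to 7.55 CPM in Obese animals, and Atp6v0d2, a subunit of the proton pump that acidifies lysosomes, from 0.0783 to 1.01 CPM to 4.98 to 6.71 CPM. Macrophage and leukocyte markers also rose in part, with 7 of 16 held higher (43.8%, beside 9.67% of all genes) and none held lower. Of the 7, 6 were held in every fit that left out a library. The list median was 0.47 on the log2 scale, and 3 of the 16 had a negative log2 fold change. The summed level of the 16 was 1321 to 1658 CPM in Lean and 3255 to 4680 CPM in Obese animals. In bulk tissue more cells of a type and more RNA per cell cannot be told apart, and the part of these cells in the increases described here and below was not tested.

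The largest held decreases outside immune families included Ncmap, Lrrtm4, Pmp2, Sostdc1, Chl1, Myo3a, Cldn19, Mlip, Slc22a3, Mup5, Vit, Sytl5, Gprin3 and Myoc. Several of these encode proteins of myelinating Schwann cells, the glia of peripheral nerve. Chl1, a neural cell adhesion molecule, was at 14.4, 13.4, 20.6, 22.2 and 19.9 CPM in Lean animals and at 0.351, 0.376, 0.402, 0.415 and 0.529 CPM in Obese animals. The values varied little within each group, and the log2 fold change was −5.65 (SE 0.40, adjusted p = 6.5e-09). Slc22a3, a transporter that takes up catecholamines and other organic cations, was at 55.5, 52.4, 36.2, 44.0 and 44.5 CPM in Lean animals and at 1.61, 1.71, 1.82, 1.41 and 0.632 CPM in Obese animals (log2 fold change −4.86, SE 0.37, adjusted p = 1.4e-08). Myoc, a secreted glycoprotein best known from the eye, was at 26.8 to 64.6 CPM in Lean and 0.877 to 2.27 CPM in Obese animals (log2 fold change −4.33, SE 0.39, adjusted p = 7.8e-08). Vit, Sytl5 and Gprin3 fell by log2 fold changes of −4.68, −4.44 and −4.39. Mup5 belongs to a family of near-identical major urinary protein genes, so its reads cannot be assigned with certainty.

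**Figure D2:**
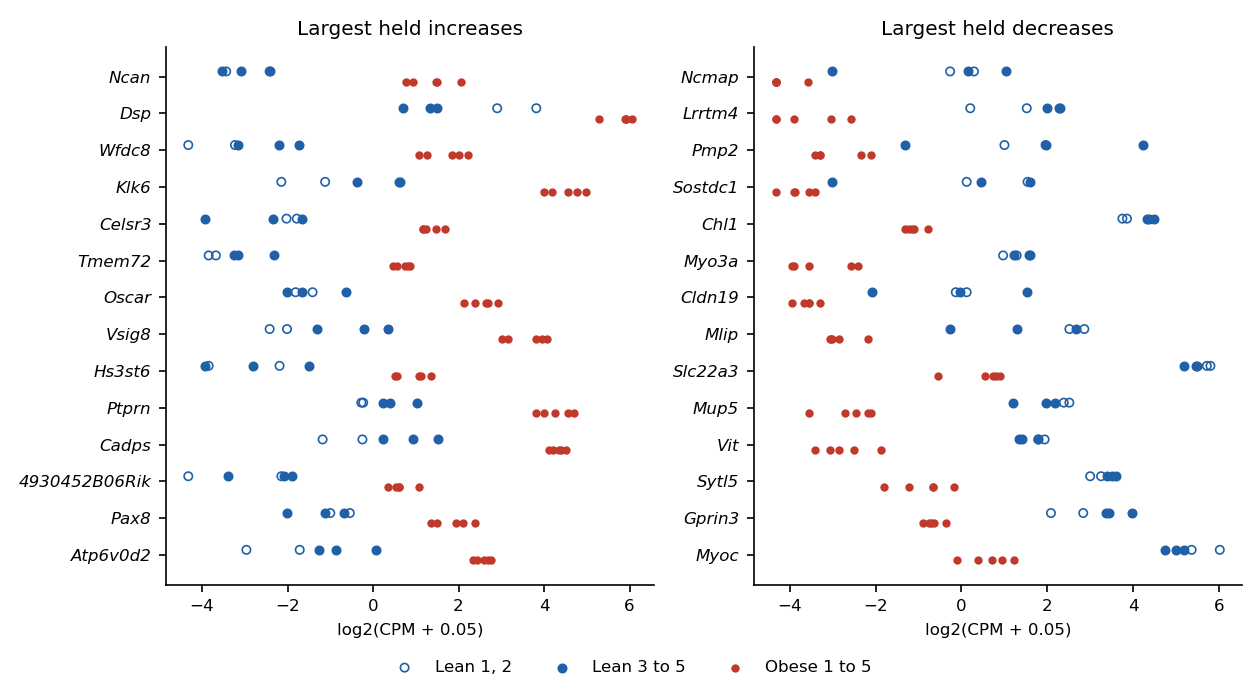
Levels of genes among the 15 largest held increases and the 15 largest held decreases on a log2(CPM + 0.05) axis, with 1 point per animal. Open circles are Lean rats 1 and 2, filled blue circles Lean rats 3 to 5 and red points Obese animals, which lie apart from Lean animals in every gene shown, with Lean rat 3 nearest to them for Ncmap, Pmp2, Sostdc1, Cldn19 and Mlip.

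The Schwann cell genes differed in how evenly they fell. Pmp2, a myelin fatty acid binding protein, was at 3.84, 1.95, 0.351, 18.6 and 3.84 CPM in Lean rats 1 to 5 and at 0.146, 0.0513, 0.0524, 0.181 and 0.0441 CPM in Obese rats 1 to 5. Lean rat 3 lay nearest to the Obese range and Lean rat 4 far above the other Lean animals (log2 fold change −6.30, SE 0.83, adjusted p = 5.0e-06). Ncmap, a protein of noncompact myelin, was covered by 315 reads in all Lean and 2 reads in all Obese libraries, a ratio of 161 with an exact 95% counting interval of 44.2 to 1330. That interval leaves out the spread between animals, and the fitted log2 fold change was −6.92 (SE 1.05). Of 14 nerve and Schwann cell markers, 7 were held lower (50%, beside 7.93% of all genes). Of the 7, 5 were held in every fit that left out a library. Among the 7 were the transcription factor Sox10 (log2 fold change −2.23, SE 0.54) and the cadherin Cdh19 (−2.94, SE 0.57). Mbp, at 87.0 to 154 CPM in Lean and 95.4 to 119 CPM in Obese animals, encodes another myelin protein and did not pass the test (adjusted p = 0.62). The summed level of the list was 2489 to 2877 CPM in Lean and 1840 to 2222 CPM in Obese animals, most of it from S100b, which adipocytes also express.

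Transcripts of other tissues sat in single Lean libraries as well. Apob, Apoa1, Apoa4 and Fabp1, genes of liver and intestine, measured 36.2, 46.2, 44 and 41.6 CPM in Lean rat 5 and did not exceed 0.509 CPM in any other library here. They were held lower in Obese animals, and none of the 4 remained held without Lean rat 5. The epithelial gene Epcam reached 19.6 CPM in Lean rat 2 and 5.67 CPM in Lean rat 5 but did not exceed 0.542 CPM elsewhere, and its call was also lost without Lean rat 5. Alb, the albumin gene, was in contrast at 91.2 to 150 CPM in every Lean animal and at 14.5 to 17.8 CPM in every Obese animal (log2 fold change −2.67, SE 0.18, adjusted p = 3.7e-09).

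Cell cycle genes were the list with the highest share of held increases, 30 of 37 tested (81.1%) against 9.67% of all genes, and 1 fell. The median log2 fold change of the list was 1.80, beside 0.00 for all genes. Mki67, a protein of dividing cells, was at 6.52, 5.70, 12.1, 10.6 and 8.56 CPM in Lean rats 1 to 5 and at 45.4, 42.3, 62.3, 62.2 and 56.4 CPM in Obese rats 1 to 5, with no overlap (log2 fold change 2.37, SE 0.22, adjusted p = 1.2e-07). Genes of DNA replication and of mitosis were among those that rose. The replicative helicase gene Mcm3 had a log2 fold change of 1.63 (SE 0.16), the ribonucleotide reductase gene Rrm2 one of 2.64 (SE 0.26), the topoisomerase gene Top2a one of 2.30 (SE 0.25) and the mitotic kinase gene Plk1 one of 2.4 (SE 0.24). E2f8, a transcriptional repressor of the cycle, rose by a log2 fold change of 2.38 (SE 0.21). The list also holds inhibitors of the cycle, and 3 of them were among those that rose. Cdkn1a, which encodes p21, was at 11.8 to 17.2 CPM in Lean and 25.0 to 35.6 CPM in Obese animals (log2 fold change 0.96, SE 0.16), Cdkn2b had a log2 fold change of 1.35 (SE 0.15), and Cdkn2a, at 0.0196 to 0.218 CPM in Lean and 0.529 to 0.857 CPM in Obese animals, one of 2.70 (SE 0.39). Ccnd2, a D-type cyclin, fell from 95.6 to 137 CPM to 57.2 to 66.5 CPM (log2 fold change −0.98, SE 0.08, adjusted p = 2.7e-08).

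Promoters of cell cycle genes often carry a CCAAT box and a cell cycle homology region, TTTGAA, and RefSeq promoters (build GRCr8) were read for 26 of the 37 genes over the 250 bases before the start. CCAAT, on either strand, was in 16 of 26 (61.5%), beside 34.3% of 27457 promoters, and TTTGAA in 7 (26.9%), beside 16%. CCAAT was not particular to this list, and was in 14 of 20 matched promoters of the cholesterol list (70%) and 11 of 16 of the de novo lipogenesis list (68.8%). Both were in 5 (19.2%), beside 5.76% of all promoters. Of the 26 matched promoters, 22 belonged to held genes, and these included the 5. These 2 motifs were chosen after the expression values were seen. The cyclic AMP element TGACGTCA was in 3 of 26 (11.5%), beside 1.70%. It was also in 2 of 16 matched promoters of the de novo lipogenesis list (12.5%) and 1 of 20 of the cholesterol list (5%). In the mature adipocyte, matrix and steroid lists it was in 0. The promoters of the 4 held genes with the smallest adjusted p that carry both CCAAT and TTTGAA are shown 5′ to 3′ in the gene's direction, to let the spacing of the motifs be read beside the increases of 2.37 (Mki67), 2.29 (Birc5), 2.30 (Top2a) and 2.24 (Cdk1) on the log2 scale. Capitals mark CCAAT and TTTGAA or their reverse complements ATTGG and TTCAAA, and 1 CCAAT overlaps a TTTGAA by a base in Mki67. The stretches are chr1:199952594-199952843, minus strand for Mki67, chr10:103571896-103572145, plus strand for Birc5, chr10:84473094-84473343, minus strand for Top2a and chr20:19265043-19265292, plus strand for Cdk1.
Mki67 promoter: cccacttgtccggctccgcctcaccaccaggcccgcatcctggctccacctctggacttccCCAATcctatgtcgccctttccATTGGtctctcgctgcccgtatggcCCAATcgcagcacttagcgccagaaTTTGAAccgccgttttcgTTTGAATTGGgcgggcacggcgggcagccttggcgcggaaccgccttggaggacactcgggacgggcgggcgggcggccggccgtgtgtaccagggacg
Birc5 promoter: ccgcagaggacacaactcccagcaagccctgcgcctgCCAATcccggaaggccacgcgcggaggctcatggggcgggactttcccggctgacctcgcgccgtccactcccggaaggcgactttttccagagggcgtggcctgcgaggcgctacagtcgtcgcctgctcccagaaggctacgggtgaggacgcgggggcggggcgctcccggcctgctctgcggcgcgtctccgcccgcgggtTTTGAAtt
Top2a promoter: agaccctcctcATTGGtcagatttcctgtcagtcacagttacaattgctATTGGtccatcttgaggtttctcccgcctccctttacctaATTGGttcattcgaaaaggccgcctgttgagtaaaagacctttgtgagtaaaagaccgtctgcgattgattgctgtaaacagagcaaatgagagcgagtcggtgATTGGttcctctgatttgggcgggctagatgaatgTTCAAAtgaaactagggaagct
Cdk1 promoter: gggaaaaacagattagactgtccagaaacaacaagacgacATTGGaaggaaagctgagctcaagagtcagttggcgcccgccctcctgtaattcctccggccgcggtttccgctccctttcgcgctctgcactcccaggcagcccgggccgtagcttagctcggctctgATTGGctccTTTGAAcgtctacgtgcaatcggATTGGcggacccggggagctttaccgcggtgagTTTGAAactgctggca
A match is a description of the letters, not of binding.

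**Figure D3:**
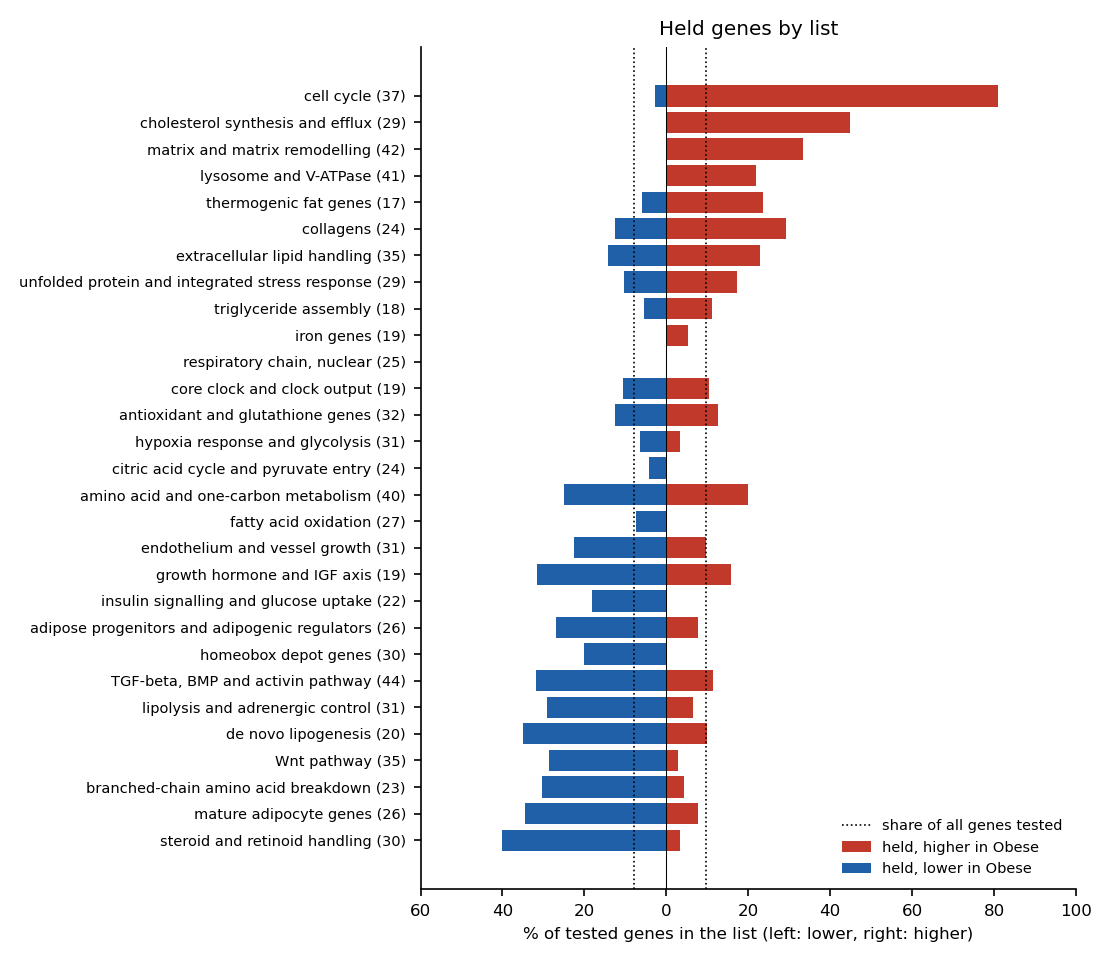
For each of 29 gene lists, bars give the percent of tested genes (number in brackets) held higher (red, right) or held lower (blue, left) in Obese animals, and dotted lines give the shares of all genes tested, 9.67% and 7.93%. The cell cycle list stands at 81.1% to the right, and the list of steroid and retinoid genes at 40% to the left.

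In the list of cholesterol synthesis, uptake, storage and efflux, 13 of 29 genes were held higher and none lower, and the list median was 0.54 on the log2 scale. Sqle, the squalene epoxidase gene, was at 7.57, 9.87, 10.8, 10.7 and 7.70 CPM in Lean and at 29.5, 29.6, 32.5, 41.1 and 34.6 CPM in Obese animals (log2 fold change 1.78, SE 0.22, adjusted p = 2.5e-06). Every Obese animal was above every Lean animal for Sqle, and likewise for Cyp51, a demethylase of the pathway, which was at 48.9 to 65.9 CPM in Lean and 102 to 133 CPM in Obese animals (log2 fold change 0.97, SE 0.13, adjusted p = 6.5e-06). Soat1, which esterifies cholesterol for storage, and Npc1, which exports it from lysosomes, rose by log2 fold changes of 1.63 (SE 0.16) and 0.85 (SE 0.08). Srebf2, the transcription factor of these genes, rose by less than 1.5-fold (log2 fold change 0.54, SE 0.08, adjusted p = 1.3e-05), and the efflux pump gene Abca1 did not pass the test (0.26, SE 0.13, adjusted p = 0.11). A sterol regulatory element, searched in 1 exact form on either strand, was in 0 of the 20 promoters of this list that were matched, and in 0.0838% of all promoters.

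Lipogenic genes split. Of 20 genes of de novo lipogenesis, 7 were held lower, among them the regulators Srebf1 (log2 fold change −0.94, SE 0.08) and Mlxipl (−1.03, SE 0.15) and the acetyl-CoA carboxylase genes Acaca (−0.89, SE 0.10) and Acacb (−0.89, SE 0.09). Only Scd and Insig1 of the list were held higher, Insig1 not in every fit that left out a library. Scd, a desaturase of fatty acids, was at 680 to 1229 CPM in Lean and at 7104 to 9765 CPM in Obese animals (log2 fold change 2.82, SE 0.29, adjusted p = 3.2e-07). The glycerol kinase gene Gk rose from 12.4 to 16.4 CPM to 30.5 to 42.5 CPM (log2 fold change 1.23, SE 0.11, adjusted p = 6.6e-08). Plin2, a lipid droplet coat protein, rose by a log2 fold change of 1.70 (SE 0.19). Of 18 triglyceride assembly genes, Gk and Mogat1 were held higher and Lpin3 lower, numbers near the shares of all genes, and Mogat1 lost its call without Lean rat 4 and Lpin3 without Lean rat 5, Obese rat 4 or Obese rat 5.

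Genes of mature adipocytes fell more often than they rose, with 9 of 26 held lower and 2 held higher. The change with the smallest adjusted p was in Agt, which encodes angiotensinogen, the precursor of angiotensin. Agt was at 693, 539, 625, 557 and 631 CPM in Lean rats 1 to 5 and at 74.2, 66.9, 63.0, 56.6 and 62.5 CPM in Obese rats 1 to 5, a 9.34-fold difference with no overlap (log2 fold change −3.22, SE 0.12, adjusted p = 2.2e-12). Acvr1c, the activin receptor ALK7 of adipocytes, fell by a log2 fold change of −1.58 (SE 0.14). Among 31 genes of lipolysis and its adrenergic control, 9 were held lower and 2 higher. The hormone-sensitive lipase gene Lipe was at 1588 ± 75.5 CPM in Lean and 904 ± 84.8 CPM in Obese animals (SD, n = 5 each; log2 fold change −0.82, SE 0.09), and the lactate receptor gene Hcar1, which restrains lipolysis, fell by a log2 fold change of −0.90 (SE 0.09). Adra2b, an alpha-2 adrenergic receptor, fell by −2.43 (SE 0.25), although Lean rats 1 and 2 at 1.49 and 1.22 CPM lay within the Obese range of 0.862 to 1.31 CPM or just above it. In the insulin list, Slc2a4, Pik3r1, Irs1 and Tbc1d4 were held lower of 22 genes, Tbc1d4 not without Lean rat 3. Irs1, the first docking protein of the insulin receptor, had a log2 fold change of −1.0 (SE 0.15), and Pik3r1, a subunit of the kinase it recruits, one of −0.94 (SE 0.11). The receptor gene Insr did not reach a 1.5-fold change (−0.41).

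Of 23 genes that break down branched-chain amino acids, 7 were held lower and 1 higher, 22 had a negative log2 fold change, and the list median was −0.44. Bcat2, the mitochondrial transaminase that starts the pathway, was at 172, 128, 151, 149 and 164 CPM in Lean animals and at 66.9, 71.0, 72.5, 68.6 and 69.9 CPM in Obese animals (log2 fold change −1.14, SE 0.06, adjusted p = 4.1e-10). Its cytosolic counterpart Bcat1 was the member that rose, from 14.9 to 22.7 CPM to 50.7 to 77.7 CPM (log2 fold change 1.72, SE 0.19, adjusted p = 5.5e-07). Both subunits of the dehydrogenase that takes the next step were held lower, Bckdha (−0.63) and Bckdhb (−0.79, SE 0.07), as were Ivd (−0.86, SE 0.08) and Aldh6a1 (−0.92, SE 0.09) further down. Bckdha was not held in every fit that left out a library.

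Other amino acid genes changed in both directions, with 10 of 40 held lower and 8 higher. Prodh, the first enzyme of proline breakdown, was at 19.6, 17.8, 22.3, 16.7 and 20.1 CPM in Lean animals and at 5.22, 4.63, 3.90, 3.41 and 4.29 CPM in Obese animals (log2 fold change −2.19, SE 0.13, adjusted p = 9.2e-10). The leucine transporter gene Slc43a1 (−1.66, SE 0.10), the glutamine transporter gene Slc1a5 (−1.0, SE 0.07) and the glutamate transporter gene Slc1a3 (−1.81, SE 0.13) fell. Slc38a1, another glutamine transporter, Slc7a11, the cystine transporter, and Mthfd2, a mitochondrial folate enzyme, rose by log2 fold changes of 2.14, 1.83 and 1.76.

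**Figure D4:**
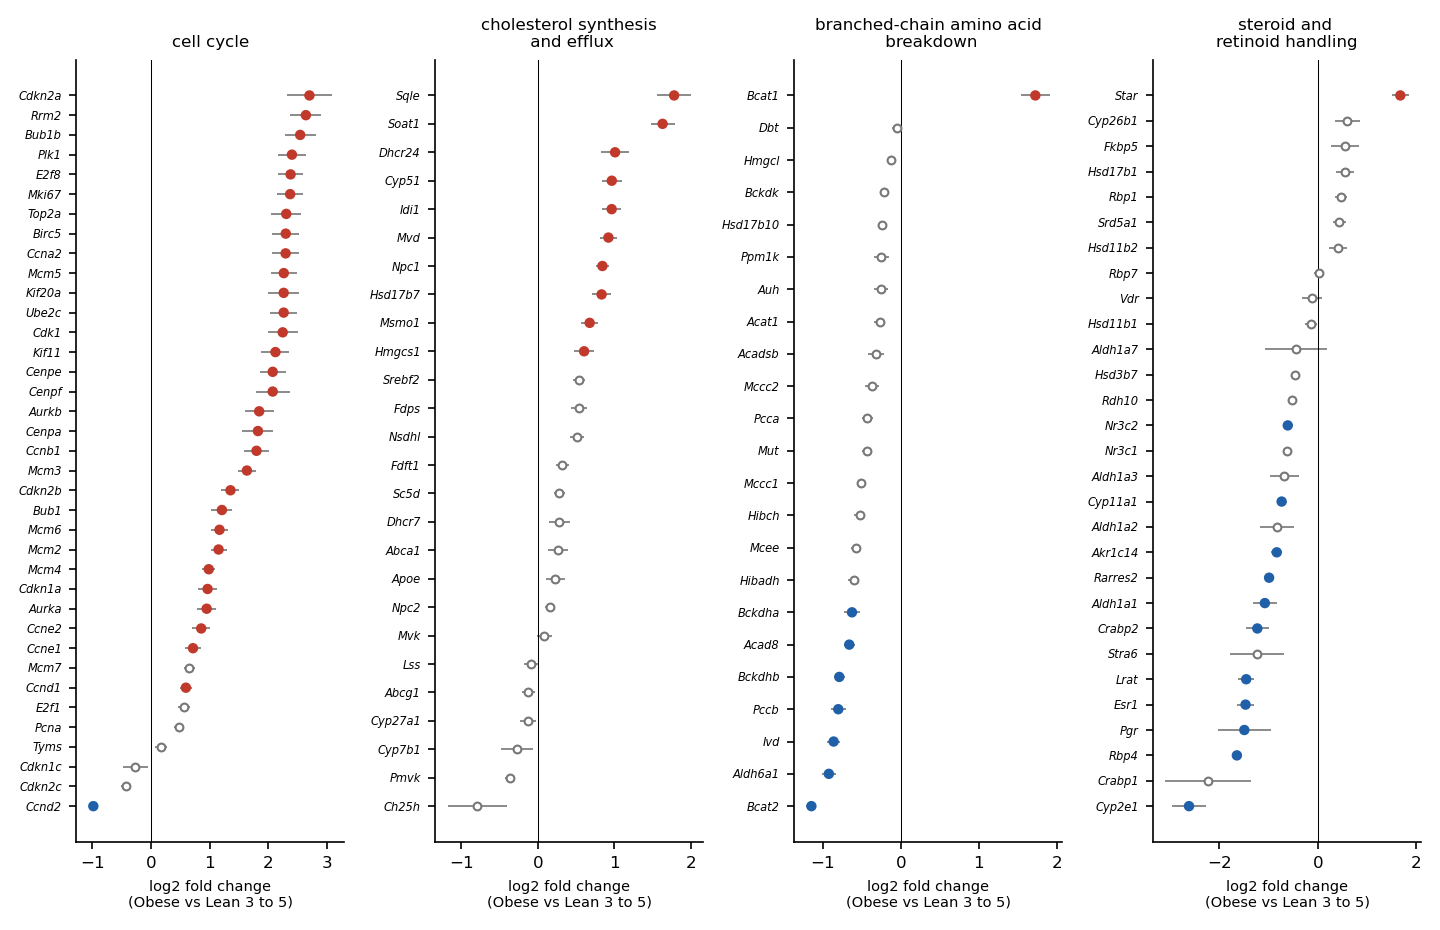
Log2 fold changes (Obese against Lean rats 3 to 5) with SE as bars for genes of 4 lists, filled where the gene was held (red higher, blue lower) and open where it was not. Filled points lie mostly to the right of 0 for the cell cycle and cholesterol lists, and mostly to the left for the branched-chain amino acid and steroid and retinoid lists.

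Steroid and retinoid genes had the highest share of held decreases of any list drawn up for a process, 12 of 30 (40%) against 7.93% of all genes, with 1 held higher and a list median of −0.65. Of the 12, 10 were held in every fit that left out a library. Esr1, estrogen receptor alpha, was at 37.3, 29.4, 44.6, 55.5 and 37.3 CPM in Lean animals and at 16, 14, 18.6, 17.0 and 17.1 CPM in Obese animals (log2 fold change −1.47, SE 0.18, adjusted p = 1.9e-06). The groups did not overlap for Esr1. Nr3c1, the glucocorticoid receptor, was a DEG without Lean rats 1 and 2 alone (−0.62, SE 0.07), and Nr3c2, the mineralocorticoid receptor, was held at −0.61 but not in every fit that left out a library. Star, which carries cholesterol into mitochondria for steroid synthesis, was the member that rose, from 7 to 14.9 CPM to 32.8 to 50.7 CPM (log2 fold change 1.68, SE 0.17, adjusted p = 3.3e-07). Among retinoid genes, Rbp4, the carrier of retinol, was at 1300 ± 132 CPM in Lean and 437 ± 49.3 CPM in Obese animals (SD, n = 5 each; log2 fold change −1.64, SE 0.11, adjusted p = 2.9e-09), and Lrat, which esterifies retinol for storage, fell by −1.46 (SE 0.17). Rarres2, which encodes the adipokine chemerin, fell by −0.99 (SE 0.09).

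The growth hormone and IGF list held 6 of 19 genes lower (31.6%) and 3 higher (15.8%), beside 7.93% and 9.67% of all genes. The 6 that fell were held in every fit that left out a library, but only 1 of the 3 that rose. Igf1, the growth factor that growth hormone induces, was at 408, 394, 546, 646 and 591 CPM in Lean animals and at 225, 251, 274, 242 and 240 CPM in Obese animals (log2 fold change −1.27, SE 0.14, adjusted p = 7.1e-07). Cish, an inhibitor of cytokine signalling that STAT5 induces, was at 76.0, 82.4, 32.9, 52.9 and 69.0 CPM in Lean and at 8.59, 9.12, 10.8, 6.43 and 6.46 CPM in Obese animals (log2 fold change −2.64, SE 0.33, adjusted p = 2.8e-06). Both separated the groups, with Lean rat 3 the lowest Lean animal for Cish. Socs2, another inhibitor of this pathway, fell by −0.68 (SE 0.13). The proteases that free IGF from its binding proteins went apart, Pappa with a log2 fold change of −1.99 (SE 0.31) and Pappa2 with 1.56. Igfbp5 was at 2090 ± 92.8 CPM in Lean and 777 ± 142 CPM in Obese animals (SD, n = 5 each; log2 fold change −1.44, SE 0.25), and Igfbp7 fell by −0.75 (SE 0.10). Ghr, the growth hormone receptor, fell by less than 1.5-fold (−0.52, SE 0.08, adjusted p = 5.2e-05). Socs3, held higher at 1.46, was at 23.8 CPM in Obese rat 4 and lost its call without that library.

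**Figure D5:**
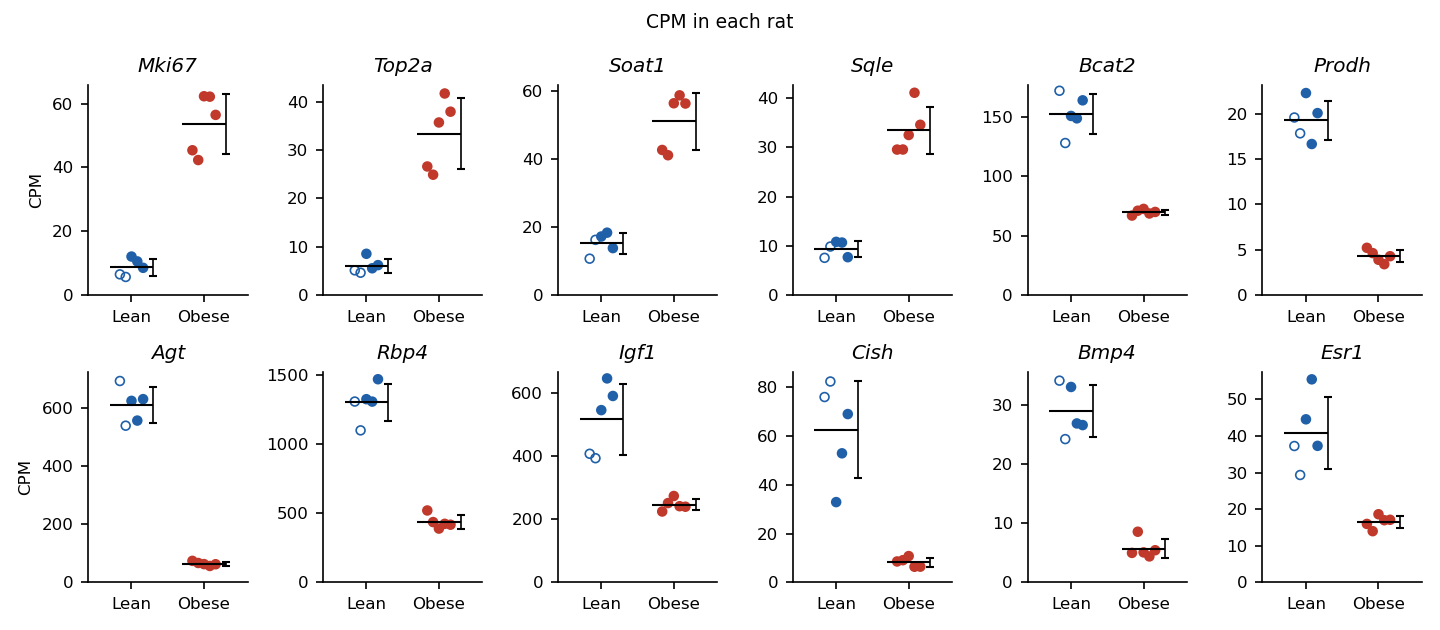
CPM in each Lean (blue) and Obese (red) animal for 12 genes, with Lean rats 1 and 2 as open circles, horizontal lines at the group means and bars of 1 SD. Mki67, Top2a, Soat1 and Sqle were higher in every Obese animal than in any Lean animal, and the other 8 genes were lower in every Obese animal.

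In the TGF-β, BMP and activin pathway, 14 of 44 genes were held lower (31.8%) and 5 higher (11.4%), beside 7.93% and 9.67% of all genes. Of the 14, 10 were held in every fit that left out a library, as were the 5 that rose. Among ligands, Bmp4, which commits progenitors to the adipocyte lineage, was at 34.2, 24.3, 33.1, 26.9 and 26.6 CPM in Lean and at 5.00, 8.59, 5.09, 4.40 and 5.45 CPM in Obese animals (log2 fold change −2.34, SE 0.19, adjusted p = 3.0e-08), and Bmp7 fell by −2.72 (SE 0.52). Tgfb1, a ligand that leukocytes also make, rose from 40.5 to 51.2 CPM to 106 to 139 CPM (log2 fold change 1.36, SE 0.12, adjusted p = 4.4e-08), and Gdf15, a stress-induced member of the family, rose by 2.13 (SE 0.21). Among receptors, Bmpr1b fell by −2.61 (SE 0.31), while Tgfbr1 rose by 0.83. Of the secreted BMP antagonists, Nog (−0.95), Chrd (−0.74) and Chrdl1 (−1.02) were held lower as well, so that ligands and antagonists fell side by side. Acvr1 (−0.66) did not keep its call in every fit that left out a library.

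Of 35 Wnt genes tested, 10 were held lower (28.6%) and 1 higher (2.86%), beside 7.93% and 9.67% of all genes. Of the 10, 6 were held in every fit that left out a library. The ligands Wnt10b (log2 fold change −3.12, SE 0.56), Wnt2 (−2.24, SE 0.39) and Wnt5a (−0.62, SE 0.10) and the receptor Fzd7 (−0.74, SE 0.12) fell, and Wnt5a was not held in every fit that left out a library. Sfrp5, a secreted Wnt antagonist, was at 7.55, 9.81, 0.849, 12.8 and 7.05 CPM in Lean and at 0.322, 0.376, 0.507, 0.162 and 0.691 CPM in Obese animals, so that Lean rat 3 lay just above the Obese range (log2 fold change −4.05, SE 0.68, adjusted p = 7.2e-05).

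Progenitor and depot genes followed in part. Of 26 progenitor and adipogenic genes, 7 were held lower, including Gata2 (−0.82, SE 0.15) and Zfp423 (−0.63, SE 0.08), which act in preadipocytes, and Dpp4, a marker of early progenitors, at 33.6 to 71.8 CPM in Lean animals, 24.6 CPM in Obese rat 2 and 6.43 to 11.7 CPM in the other 4 Obese animals (−1.69, SE 0.46). Thy1, a surface protein of fibroblasts, rose from 13.1 to 26.8 CPM to 80.2 to 118 CPM (log2 fold change 2.01, SE 0.21, adjusted p = 3.6e-07). Of 30 homeobox genes that mark body position, 6 were held, all lower. The Hoxd genes Hoxd9 (−1.48, SE 0.20), Hoxd8 (−0.98, SE 0.14), Hoxd3 (−1.20, SE 0.25) and Hoxd4 (−0.88) were among them, with Hoxb8 and Shox2. Hoxd9 was at 6.24 to 8.67 CPM in Lean and 1.55 to 3.33 CPM in Obese animals.

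Of 42 matrix and matrix remodelling genes, 14 were held higher and none lower, while 15 of the 42 had a negative log2 fold change and the list median was 0.15. Bgn, the proteoglycan biglycan, was at 339, 343, 259, 326 and 289 CPM in Lean and at 718, 771, 997, 806 and 773 CPM in Obese animals (log2 fold change 1.48, SE 0.10, adjusted p = 6.5e-09). The protease gene Mmp9 rose by 2.89 (SE 0.27) and Timp1, an inhibitor of such proteases, by 1.83 (SE 0.22). Collagens split, with 7 of 24 held higher and 3 held lower. The fibril collagen gene Col1a1 (0.88, SE 0.19) and the collagen VI genes Col6a1 (0.91, SE 0.11), Col6a2 (0.72, SE 0.10) and Col6a3 (0.97, SE 0.16) rose. The basement membrane collagen genes Col4a4 (−1.19, SE 0.18) and Col4a5 (−1.83, SE 0.50) and a further collagen VI gene, Col6a5 (−2.78, SE 0.73), fell. Col6a5 was at 29.4 to 71.3 CPM in Lean animals, 23.8 CPM in Obese rat 2 and 0.758 to 2.57 CPM in the other 4 Obese animals.

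In vessels, 7 of 31 genes were held lower (22.6%) and 3 higher (9.68%), beside 7.93% and 9.67% of all genes. Of the 7 that fell, 3 were held in every fit that left out a library, as were the 3 that rose. Angpt1, a ligand that stabilizes vessels, was at 22.3 to 35.8 CPM in Lean and 11.7 to 15.4 CPM in Obese animals (log2 fold change −1.27, SE 0.13, adjusted p = 3.3e-07), and Tek, its receptor, fell by −0.76 (SE 0.10). Lyve1 and Prox1, markers of lymphatic vessels, were held lower (−1.0 and −2.31), but neither was held in every fit that left out a library. The angiogenic ligands Pgf (1.63, SE 0.19) and Apln (1.54, SE 0.24) and the co-receptor Nrp1 (0.66, SE 0.07) rose.

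Lists of mitochondrial fuel use held few called genes. Of 25 nuclear genes of the respiratory chain, 0 were held by edgeR, DESeq2 or limma-voom. Without a fold threshold, 13 of the 25 had an adjusted p under 0.05 without Lean rats 1 and 2. So did 7280 of all 17653 genes. The changes of the 25 were below 1.5-fold, with a list median of −0.15. Ndufa4, at 316 to 380 CPM in Lean and 242 to 273 CPM in Obese animals, was an example (−0.33, SE 0.07, adjusted p = 0.0010). In fatty acid oxidation 2 of 27 genes were held, Eci1 (−0.77, SE 0.08) and Abcd2 (−0.71, SE 0.10), and in the citric acid cycle 1 of 24, Pdhx (−0.71, SE 0.06), a component of pyruvate dehydrogenase. Held decreases were 7.41% and 4.17% of these lists, beside 7.93% of all genes. No gene of either list was held higher, beside 9.67% of all genes. The share of reads from the mitochondrial genome was 9.29% ± 0.777 in Lean and 10.8% ± 0.838 in Obese animals (SD, n = 5 each), a difference of 1.54 percentage points (p = 0.016, two-sided exact permutation test, smallest possible p 0.0079). Without Lean rats 1 and 2 the difference was 1.26 (p = 0.071, two-sided exact permutation test over 56 splits, smallest possible p 0.018). Of 17 thermogenic genes, 4 were held higher and 1 lower. Otop1, a proton channel, rose from 1.39 to 4.95 CPM to 14 to 26.1 CPM (log2 fold change 2.38, SE 0.27, adjusted p = 1.1e-06), and Prdm16, a regulator of brown fat identity, fell (−0.80, SE 0.22). Ucp1, the uncoupling protein of brown fat, was at no more than 0.872 CPM in any library and was a DEG with all libraries (adjusted p = 0.041) but not without Lean rats 1 and 2 (adjusted p = 0.17).

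Of 32 antioxidant genes, 4 were held higher and 4 lower (12.5% each), near the 9.67% and 7.93% of all genes. Those that fell were Gsta4 (−1.29), Mgst1 (−0.82), extracellular superoxide dismutase, Sod3, which was at 929 ± 62.0 CPM in Lean and 402 ± 27.7 CPM in Obese animals (SD, n = 5 each; log2 fold change −1.20, SE 0.09, adjusted p = 1.0e-08), and plasma glutathione peroxidase, Gpx3, at −1.03 (SE 0.11). Slc7a11 (1.83), Gpx1 (1.11), Srxn1 (1.00) and the heme oxygenase gene Hmox1 (0.87, SE 0.12) rose. In the list of unfolded protein and integrated stress responses, 5 of 29 genes were held higher and 3 lower. Xbp1, a transcription factor of the unfolded protein response, was at 149 to 196 CPM in Lean and 91.9 to 103 CPM in Obese animals (log2 fold change −0.97, SE 0.07, adjusted p = 7.6e-09), while Atf3, a stress-induced factor, rose by 2.02 (SE 0.20). The chaperone gene Hspa5 did not pass the test (−0.03).

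Among 19 clock genes 2 were held higher and 2 lower, a share close to that of all genes. Npas2, a partner of the clock activator BMAL1, was at 5.81 to 11.1 CPM in Lean and 1.73 to 3.18 CPM in Obese animals (log2 fold change −1.82, SE 0.20, adjusted p = 5.3e-07), and Arntl, which encodes BMAL1, fell by −0.68 (SE 0.14) but not in every fit that left out a library. The repressors Bhlhe41 (1.48, SE 0.15) and Ciart (1.19, SE 0.22) rose. Of 31 hypoxia and glycolysis genes, Egln3, an oxygen sensor (−1.75, SE 0.20), and Bnip3, a mitophagy receptor (−0.86, SE 0.10), were held lower and Pfkfb4 higher (0.78, SE 0.20). These shares, 6.45% lower and 3.23% higher, were under the 7.93% and 9.67% of all genes.

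Lysosomal genes were held higher in 9 of 41 cases and lower in none, and 40 of the 41 had a positive log2 fold change. Lipa, lysosomal acid lipase, was at 88.1, 90.4, 145, 152 and 99.9 CPM in Lean and at 513, 480, 677, 688 and 678 CPM in Obese animals (log2 fold change 2.20, SE 0.19, adjusted p = 4.7e-08). In extracellular lipid handling, 8 of 35 were held higher and 5 lower. Pla2g7, a lipoprotein-bound phospholipase, rose by 2.67 (SE 0.20), and the fatty acid binding protein genes Fabp3 and Fabp5 by 2.46 (SE 0.26) and 1.44 (SE 0.14). Fabp3 was at 27.6 to 43.2 CPM in Lean and 159 to 266 CPM in Obese animals.

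The calls that depended on Lean rats 1 and 2 were mostly decreases, 526 (2.98%) against 284 increases (1.61%) among the 810 lost genes. Of the 810, 741 kept their sign and 207 still had an adjusted p below 0.05 but a fold of 1.5 or less. In 279 of those 526 the mean of Lean rats 1 and 2 was more than 2 times that of Lean rats 3 to 5. Of 26 muscle markers, 25 were DEGs with all libraries and 0 were held by edgeR, DESeq2 or limma-voom. Ckm, muscle creatine kinase, measured 398 and 716 CPM in Lean rats 1 and 2, 1.09 to 1.26 CPM in Lean rats 3 to 5 and at 0 to 1.61 CPM in Obese animals, and its log2 fold change went from −7.76 to −0.14 (SE 1.31). Acta1, Myh7, Igfn1, Tnnc2 and Pvalb were also lost, with log2 fold changes of −0.45, −0.49, −1.78, −0.55 and −1.23 without Lean rats 1 and 2, none past the adjusted p threshold. Other sarcomere and muscle genes turned round. The 12 genes with opposite calls were Asb2, Bves, Cacna1s, Cox6a2, Dusp27, Jsrp1, Klhl41, Myl3, Myo18b, Neb, Ppp1r27 and Tnnt1, each a DEG lower in Obese animals with all libraries and higher without Lean rats 1 and 2. Cox6a2, a muscle subunit of cytochrome oxidase, measured 16.4 and 34.1 CPM in Lean rats 1 and 2, 0.277, 0.420 and 0.367 CPM in Lean rats 3 to 5 and at 2.37, 1.62, 1.64, 1.57 and 1.76 CPM in Obese animals. Its log2 fold change was −2.52 (adjusted p = 0.024) with all libraries and 2.33 (SE 0.33, adjusted p = 1.2e-05) without Lean rats 1 and 2. Trdn, triadin of the muscle calcium release complex, reached 27.8 and 57.4 CPM in Lean rats 1 and 2, 0.245 to 0.436 CPM in Lean rats 3 to 5 and 5.20 to 11.7 CPM in Obese animals (log2 fold change 4.49, SE 0.56, adjusted p = 3.0e-06 without Lean rats 1 and 2). Among the genes that were DEGs without those animals alone, Nnt (0.71, SE 0.08), a mitochondrial transhydrogenase, had one of the smallest adjusted p values, 9.1e-07.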

How the data were processed

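The authors prepared stranded mRNA libraries and deposited raw counts of reads per gene, without normalization, for 20 iWAT libraries. The paper maps reads to rn6, while the submitters' processing notes name STAR 2.5.2, featureCounts and GRCh38, a human build, for rat gene identifiers. Whether strand was used in counting is not given in the sources used here, so overlapping antisense genes cannot be told apart. Each library came from a separate animal, and p-values measure the spread between these animals.

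From the counts, CPM with TMM-scaled library sizes were computed. Of 32545 genes, 14892 lacked reads in at least 10 of 20 libraries and were removed. edgeR 4.0.16 (R 4.3.3) fitted the 4 groups with a quasi-likelihood model, with 16 residual degrees of freedom, and again without Lean rats 1 and 2 (14 degrees of freedom). p-values were adjusted by Benjamini-Hochberg, and DEGs had a fold over 1.5 (0.585 on the log2 scale). DESeq2 1.42.0 and limma 3.58.1 were alternatives. The model was tested on simulated data.

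Gene lists (36, with 939 symbols, 915 found and 883 tested) and the members were chosen with earlier results of these data known, so a list's direction is not independent evidence. Named genes were the 15 largest held changes in each direction with at least 1 CPM in 1 group, no overlap and no immune family symbol, then up to 4 held genes per list with the smallest adjusted p (2 members where none was held), 6 lost and 6 gained genes and Lepr. Other list members and the 12 opposite genes are named after their values were seen. Promoters came from RefSeq (GRCr8), matched by symbol, 1 per symbol. Exact matches on both strands were counted for a sterol element, a CLEAR element, CACGTG, TTATGTAA and TGACGTCA, with CCAAT and TTTGAA added after expression values were seen. Counting intervals cover counting error only. Alternatives were other scaling, filters, tools and samples, no fold threshold, a replicate block and leaving out each library. Some genes of these lists are counted but not reported by name here.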

Additional observations from a re-analysis of the deposited data

Results flagged for a closer look

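In 14 cases, 1 of the 5 animals of a group stood far from the other 4, by a gap to its nearest neighbour that took up more than 0.71 of the group's range (Dixon's test). Chance alone gives this in about 1 in 20 groups, and with 286 groups examined (143 genes) 14 cases are about what chance gives. Among Obese animals, Dsp was at 38.8 CPM in rat 1 (next lowest 59.6 CPM). Obese rat 2 was highest for Ncmap, at 0.0342 CPM where the others had no reads, for Mlip at 0.171 CPM (next 0.0877), for Bmp4 at 8.59 CPM (next 5.45) and for Sod3 at 450 CPM (next 397). Obese rat 3 was lowest for Abcd2 at 254 CPM (next 295), for Bckdhb at 47.3 CPM (next 54.2) and for the glutamine transporter gene Slc1a5 at 358 CPM (next 399). The muscle actin gene Acta1 was at 0.206 CPM in Obese rat 5 (next 1.82 CPM).

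Among Lean animals, rat 1 was highest for Bnip3 at 335 CPM (next 279) and for Tek at 159 CPM (next 144). Lean rat 2 was highest for Prdm16 at 7.86 CPM (next 4.4) and lowest for Gpx3 at 2330 CPM (next 2790). The myelin gene Pmp2 was at 18.6 CPM in Lean rat 4 (next 3.84 CPM).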

How the results depend on the processing

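The 3107 held genes became 3078 with library-size scaling, 3079 by DESeq2, 3125 by limma-voom, 3107 with no filter on low counts, 2930 with the edgeR filter and 2972 when only the 10 Lean and Obese libraries were fitted. With no fold threshold there were 8500 DEGs (4180 higher, 4320 lower), 7280 without Lean rats 1 and 2, and 6800 held genes (3484 higher, 3316 lower). Leaving out 1 library at a time gave 3670 to 4035 DEGs (1892 to 2064 higher, 1754 to 1995 lower), 3008 to 3473 without Lean rats 1 and 2, and 2729 (without Lean rat 5) to 3197 (without Obese rat 2) held genes, 1576 to 1745 higher and 1153 to 1452 lower. A count of 2342 were held every time, an alternative chosen after seeing the data. The mitochondrial read share differed by 1.178 to 1.812 percentage points with 1 library left out and by 1.262 (two-sided exact permutation p = 0.071) without Lean rats 1 and 2. Lean and Obese animals with the same number deviated together weakly (correlations −0.013, 0.145, 0, 0.077 and 0.081), so the numbers were not taken as pairs. With the replicate block 2961 genes were held, 2870 of them among the 3107. For the 143 genes named by rule, none of the values under the alternatives changed direction. The 12 genes with opposite calls, which turn round without Lean rats 1 and 2, were not among the 143. The 6 lost muscle genes missed the threshold by limma-voom and without Lean rats 1 and 2. Nr1h3, Acvr1, Arntl and Zfp423 missed it in some fits with a library left out, Tbc1d4, Lpin3, Mogat1 and Wnt5a were also not held in at least 1 of them, and Nr1h3 also under other filters and with the 10 libraries only. Genes with few reads, such as Ncmap, are limited by depth.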

Other observations

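Lean rat 3 was low for several transcripts that the other Lean animals carried at higher levels. Apod, an apolipoprotein that glia make, was at 1.90 CPM there, at 38.3 to 63 CPM in the other Lean animals and at 0.979 to 2.11 CPM in Obese animals, so that Lean rat 3 lay within the Obese range. Ncmap was at 0.0738 CPM and the Wnt and BMP antagonist gene Sostdc1 at 0.0738 CPM in Lean rat 3, and Cldn19, a claudin of Schwann cells, at 0.185 CPM.

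Of 12 lymph node markers, 3 were held lower (25%, beside 7.93% of all genes), 2 of them in every fit that left out a library. A positive log2 fold change was found in 4. The summed level of the 12 was lower in every Obese animal, at 83.7 to 96.4 CPM in Lean and 10.4 to 19.6 CPM in Obese animals. Of 12 smooth muscle and mural cell markers only Mcam was held lower. Among 9 gland and skin markers 3 were held lower (33.3%), 1 of them in every fit that left out a library. Without Lean rats 1 and 2, 5 of the 9 had a positive log2 fold change, and the list median was 0.62. The sum of the 9 was 172 CPM in Lean rat 2, 15.3 to 41.8 CPM in the other Lean animals and 14.7 to 59.5 CPM in Obese animals. Of 8 liver and intestine markers 6 were held lower, and 1 of them, Alb, in every fit that left out a library. Of 19 iron genes 1 was held higher (5.26%, beside 9.67% of all genes) and none lower. Among gene types, 2924 of 15990 protein-coding genes and 121 of 620 long intergenic non-coding RNAs were held. Both shares lie near the 17.6% of all genes tested, so no difference between gene types is read from them.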
